A study of Mus musculus with 23 samples.

Results

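The laminins and their receptors were examined in the sciatic nerve of the mouse. The genes were taken by symbol: the laminin chains (Lama, Lamb and Lamc), the integrin alpha and beta chains (Itga and Itgb) and Dag1, which encodes dystroglycan. This gave 38 protein-coding genes, 11 laminin chains, 26 integrin chains and Dag1, of 43068 genes listed for the crush libraries and 22880 listed for the iKO libraries, and all 38 were listed in both. RNA sequencing of whole nerve pieces was available for 23 libraries. In the crush experiment, wild-type C57bl6 mice gave the nerve distal to a crush at 3 dpc (days post crush, n = 4), the contralateral nerve of the other leg (n = 4) and uncrushed nerve from surgery controls (n = 3). In the iKO experiment (inducible knockout), Dicer iKO mice carried P0-CreERT2 -/+ with Dicer1 flox/flox and Dgcr8 iKO mice carried the same Cre with Dgcr8 flox/flox (n = 3 each). Their controls (n = 3 each) were P0-CreERT2 -/- with the same floxed alleles. All iKO mice, controls included, received tamoxifen as adults and were sampled at 3 mpT (months post tamoxifen). The Cre acts in myelinating Schwann cells, so by design the other cells of the nerve keep their floxed alleles intact. The mutant mice were preselected for affected nerve morphology, which limits them as a random draw of their genotype. Nothing in the sources used here says whether libraries of a group shared a litter or a day, and p-values measure the spread between these libraries.

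Laminins are trimers of 1 alpha, 1 beta and 1 gamma chain and form the core of the basal lamina that surrounds each Schwann cell and axon unit. The trimer of Lama2, Lamb1 and Lamc1 is the main laminin of the endoneurium, and loss of Lama2 in people and mice causes a dystrophy with a dysmyelinating neuropathy. Schwann cells hold laminin through dystroglycan, through Itgb1 paired with Itga3, Itga6 or Itga7, and, once they myelinate, through Itga6 paired with Itgb4. Itgb2, with Itgal, Itgam, Itgax or Itgad, is confined by textbook knowledge to leukocytes. Itga4, Itgae and Itgb7 are used mainly by lymphocytes and myeloid cells, although Itga4 is also made by other cells.

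Total expected counts ran from 6617716 to 12806066 in the crush libraries and from 5594859 to 10143244 in the iKO libraries. Levels are given as CPM (counts scaled to a common library size by TMM across all libraries of an experiment), so that 3 counts, taken as the floor, correspond to 0.235 to 0.513 CPM in the crush and 0.286 to 0.518 CPM in the iKO libraries, for counting error only. The 2 experiments used different library kits by their labels, and their levels are set side by side without a test. Summed over 6 Schwann cell markers, CPM was 37377 to 40277 in uncrushed, 38986 to 51247 in contralateral and 1904 to 2824 in crushed nerves, where 5 of the 6 fell against uncrushed nerve. In the iKO experiment the same sum was 23075 to 38267 in Dicer controls, 18801 to 23547 in Dicer iKO, 37029 to 39398 in Dgcr8 controls and 12853 to 24674 in Dgcr8 iKO nerves. The Dicer controls stood apart from each other: the 5 fibroblast markers summed to 11336, 8419 and 3784 CPM in replicates 1, 2 and 3, the 2 perineurial markers to 587, 409 and 155 and the 8 macrophage and myeloid markers to 885, 504 and 262. Results of the Dicer experiment that change without a single control are given with that value. By the edgeR test described below, the targeted genes did not pass at the gene level. Dicer1 was at 88, 87.4 and 90.5 CPM in Dicer controls and 81.3, 82.1 and 82 CPM in Dicer iKO. These were lower without overlap (log2 -0.11 ± 0.08, adjusted p = 0.357). Dgcr8 was at 38.3, 35.4 and 41.8 CPM in Dgcr8 controls and 39.4, 54 and 41.8 CPM in Dgcr8 iKO (log2 0.22 ± 0.15, adjusted p = 0.233). These sums take in the exons outside the floxed part and all cells without Cre. By PCR assays at the same time after tamoxifen, the paper reports each mutant's targeted mRNA as reduced. It also reports an abundant microRNA as reduced in both. In whole tissue, fewer cells of a type and less RNA per cell cannot be told apart.

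For 24 of the 38 genes RefSeq lists a start site with its promoter (GRCm38.p6). The 250 bases before the start were searched on both strands for GAGGAA, the core of sites of the myeloid factor PU.1, and TGANTCA, the AP-1 site; these 2 motifs do not overlap in letters. GAGGAA was found in 23.3% and TGANTCA in 6.75% of all 32851 promoters of that length. The 24 genes have 28 such promoters, and 13 genes held GAGGAA and 1 held TGANTCA in at least 1 promoter. These counts per gene are not comparable with the shares per promoter. GAGGAA was in 1 of the 4 leukocyte integrins and in 3 of the 3 laminin beta chains with a promoter. The 5 promoters below belong to genes on which the later comparisons turn, 1 laminin chain, 1 fibronectin receptor and 3 leukocyte integrins, and capitals mark the motifs on either strand.
Lama2 (chr10:27616943-27617192, minus strand): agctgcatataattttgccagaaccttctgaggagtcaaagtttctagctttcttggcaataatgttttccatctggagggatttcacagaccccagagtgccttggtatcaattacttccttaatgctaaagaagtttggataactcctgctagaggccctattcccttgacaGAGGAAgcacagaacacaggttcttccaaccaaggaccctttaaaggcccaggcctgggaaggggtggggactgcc
Itga5 (chr15:103366792-103367041, minus strand): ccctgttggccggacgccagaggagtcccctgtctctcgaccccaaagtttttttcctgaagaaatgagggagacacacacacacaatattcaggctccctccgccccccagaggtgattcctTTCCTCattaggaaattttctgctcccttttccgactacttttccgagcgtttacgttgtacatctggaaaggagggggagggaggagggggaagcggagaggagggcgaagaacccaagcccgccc
Itga4 (chr2:79255176-79255425, plus strand): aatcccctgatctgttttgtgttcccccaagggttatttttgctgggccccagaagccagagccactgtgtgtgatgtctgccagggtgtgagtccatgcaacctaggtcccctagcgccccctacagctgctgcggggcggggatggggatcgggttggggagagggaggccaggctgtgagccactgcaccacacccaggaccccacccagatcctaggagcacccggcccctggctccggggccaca
Itgam (chr7:128062390-128062639, plus strand): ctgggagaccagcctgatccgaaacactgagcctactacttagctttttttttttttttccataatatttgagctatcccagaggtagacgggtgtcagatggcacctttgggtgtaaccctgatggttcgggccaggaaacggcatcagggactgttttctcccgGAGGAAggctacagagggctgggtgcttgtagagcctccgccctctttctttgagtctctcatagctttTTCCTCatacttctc
Itgax (chr7:128129300-128129549, plus strand): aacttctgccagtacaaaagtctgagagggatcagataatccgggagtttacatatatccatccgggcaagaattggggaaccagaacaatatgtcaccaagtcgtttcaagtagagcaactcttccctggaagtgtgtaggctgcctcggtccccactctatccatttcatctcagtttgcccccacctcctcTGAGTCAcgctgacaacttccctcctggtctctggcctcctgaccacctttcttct
Itgam holds 2 copies of GAGGAA and Itgax holds none but has the 1 copy of TGANTCA. The last 3 bases of the Itgax stretch lie in its first exon in the gene annotation of the same build. The Lama2 stretch lies inside the gene, whose 5' end in that annotation is at position 27619758, so it does not precede the outermost start.

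The levels of different genes were compared per transcript length and within a library. TPM, the deposited abundance per transcript length, was used here only as a share of the 38 genes' summed TPM, because 1 transcript held 61.4% to 71.8% of all TPM in each crush library. Lamb1 took 18.5% ± 1.5 (SD, n = 3) of it, Itga6 16.6% ± 1.26, Dag1 15.1% ± 0.171, Itgb1 9.48% ± 0.861, Lamc1 8.76% ± 0.795 and Lama2 6.5% ± 0.415 in uncrushed nerve, where the order of the first 3 was not tested. In crushed nerve the leading shares were those of Itgb1 at 17.6% ± 1.41 (SD, n = 4), Dag1 at 16.8% ± 1.98 and Itgb8 at 11.6% ± 0.348, while Lamb1 held 7.45% ± 0.315. In Dgcr8 controls Dag1 led at 14% ± 1.63 (SD, n = 3), and in Dgcr8 iKO Itgb1 led at 11.7% ± 0.344. The leukocyte class had its most abundant chain by mean in Itga4 in uncrushed nerve (0.39% ± 0.111), Itgam in crushed nerve (2.76% ± 0.476) and Itgb2 in both mutants (1.83% ± 0.359 in Dicer iKO and 1.52% ± 0.496 in Dgcr8 iKO). In Dgcr8 iKO Itgax held nearly the same share (1.5% ± 0.979), and these orders were not tested.

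Crushed nerves were compared with uncrushed and with contralateral nerves to ask how the matrix and its receptors differ 3 days after injury. Both comparisons share the crushed libraries. By the study's methods, the contralateral nerves came from the crushed mice. The sample titles do not say which libraries share a mouse, and the tests here treat the nerves as independent. A gene is said to have risen or fallen at an adjusted p of at most 0.05 (edgeR quasi-likelihood test, Benjamini-Hochberg over all genes tested), and called at an at least 2-fold change in addition. Against uncrushed nerve, 36 of the 38 genes were tested (Itgad and Itgb6 were too low), of which 17 rose (47.2%, against 33.8% of all genes tested) and 12 fell (33.3%, against 33.4%). At 2-fold, 11 were called higher (30.6%, against 15.3%) and 9 lower (25%, against 21.1%). Against contralateral nerve, 35 were tested, 14 rose (40%, against 33.5%), 13 fell (37.1%, against 32.9%), and 10 were called in each direction (28.6%, against 14.6% higher and 13.6% lower). Without a filter on low counts the split was 14 higher and 6 lower against uncrushed and 11 and 8 against contralateral nerve, with the median of the shared genes moved up by 0.23 and 0.16 log2. The median log2 fold change of the genes tested was 0.21 against uncrushed and 0.16 against contralateral nerve, beside -0.03 and -0.06 over all genes. Between contralateral and uncrushed nerve none of the 35 tested passed (background 0%, 0 of 17722 genes by edgeR), with 6 of the 35 and 3165 of all genes at an unadjusted p under 0.05; DESeq2 passed 250 genes and none of the 35.

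**Figure D1:**
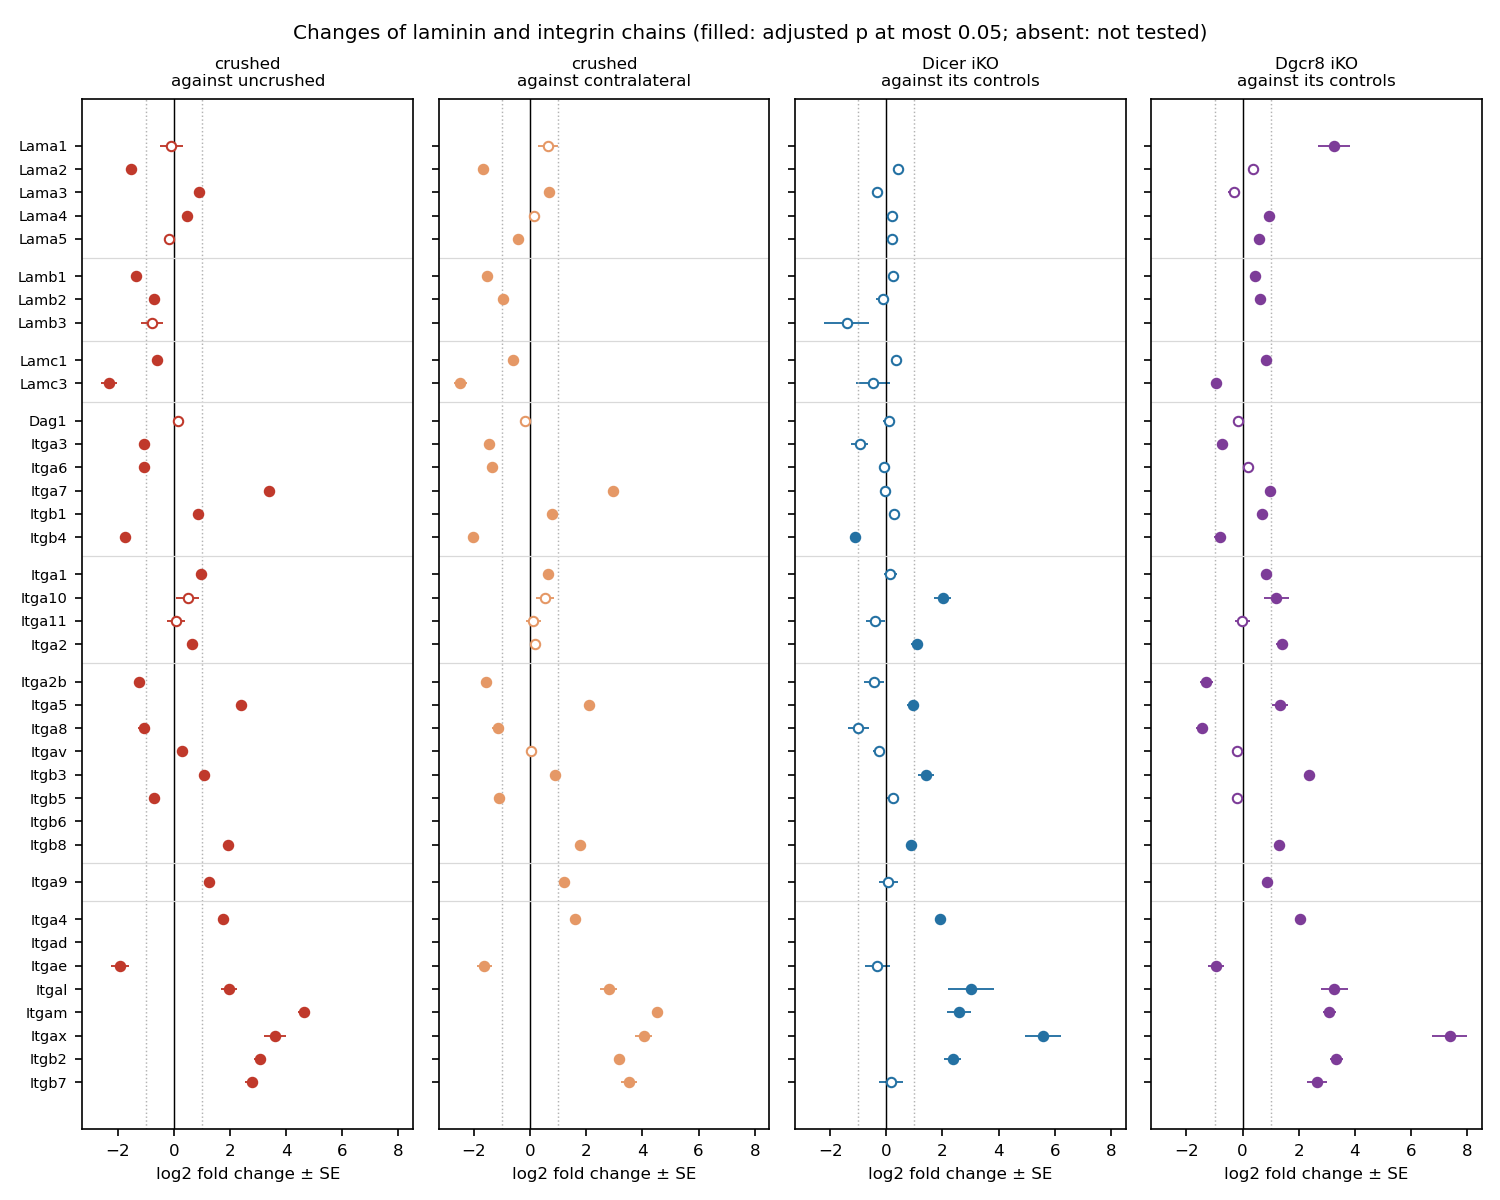
Log2 fold change with its standard error (x axis, dotted lines at 2-fold) for the laminin and integrin chains described here and Dag1 (y axis, by class) in 4 comparisons. Filled points passed an adjusted p of 0.05; Itgam, Itgax, Itgb2, Itgal and Itga4 lie to the right of the 2-fold line in all 4 panels.

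More laminin chains fell than rose after crush. Of the 11, 5 fell against uncrushed nerve (45.5%, against 33.4% of all genes), 3 of them called (27.3%, against 21.1%). That called share lies near that of all genes. The 2 that rose (18.2%, against 33.8%) were not called, and the median change was -0.59 (log2). Against contralateral nerve 6 of the 10 tested fell (60%, against 32.9%), 3 of them called (30%, against 13.6%). There 1 rose (10%, against 33.5%), and the median was -0.52. Lama2 was at 440.5, 484 and 548 CPM in uncrushed, 556, 526, 507 and 478 CPM in contralateral and 123, 179, 171 and 163 CPM in crushed nerves. Every crushed nerve was under every other nerve, by 2.86-fold against uncrushed (log2 -1.52 ± 0.13, adjusted p = 6.15e-07) and 3.22-fold against contralateral (log2 -1.69 ± 0.11, adjusted p = 4.76e-09). Lamb1, its main beta partner, was at 577, 656 and 642 CPM in uncrushed, 654, 723, 681 and 628 CPM in contralateral and 199.6, 261, 239 and 214 CPM in crushed nerves, again without overlap (log2 -1.35 ± 0.11, adjusted p = 3.75e-07 and -1.54 ± 0.09, adjusted p = 2.38e-09). Lamc1, the gamma chain of nearly all laminins, was at 435, 464 and 523 CPM in uncrushed, 469, 466, 444 and 429 CPM in contralateral and 228, 335, 314 and 295 CPM in crushed nerves. It fell by less than 2-fold without overlap (log2 -0.59 ± 0.13, adjusted p = 0.00135 and -0.61 ± 0.10, adjusted p = 0.000113), and Lamb2 fell likewise (log2 -0.71 ± 0.10, adjusted p = 3.7e-05 and -0.97 ± 0.08, adjusted p = 6.4e-08).

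Lamc3, a low-abundance gamma chain, had the largest change of the laminins that passed. It was at 10.4, 9.52 and 7.52 CPM in uncrushed, 8.4, 10.8, 11 and 9.03 CPM in contralateral and 1.52, 0.895, 2.47 and 2.07 CPM in crushed nerves, 4.98-fold lower than uncrushed (log2 -2.32 ± 0.28, adjusted p = 1.46e-05) and 5.63-fold lower than contralateral (log2 -2.49 ± 0.23, adjusted p = 2.78e-07). Lama4, the alpha chain of vessel and endoneurial laminins that is also made by immature Schwann cells, behaved differently, at 186, 216 and 211 CPM in uncrushed, 245, 254, 241 and 216 CPM in contralateral and 254, 279.7, 271 and 234 CPM in crushed nerves. It rose against uncrushed (log2 0.45 ± 0.10, adjusted p = 0.00126), but crushed and contralateral nerves overlapped and the change did not pass (log2 0.13 ± 0.08, adjusted p = 0.154; adjusted p = 0.0451 without contralateral replicate 2 and 0.0159 with no filter on low counts). Lama3 rose in both comparisons (log2 0.88 ± 0.15, adjusted p = 0.000316 and 0.67 ± 0.15, adjusted p = 0.000939) from a low level of 5.93 to 6.15 CPM in uncrushed nerve. Lama5, a chain of vessel basement membranes, fell against contralateral only at log2 -0.43 ± 0.14, adjusted p = 0.0149, a call that was lost without contralateral replicate 2 (log2 -0.27, adjusted p = 0.0652), and had log2 -0.18 ± 0.13, adjusted p = 0.252, against uncrushed, where it passed without crushed replicate 1 (log2 -0.32 ± 0.10, adjusted p = 0.0181). Lama1 did not pass in either comparison, Lamb3 did not pass against uncrushed and was not tested against contralateral nerve, and both stayed under 3 CPM in each crush library. Lamb3 passed as lower than uncrushed without crushed replicate 3 (log2 -1.23 ± 0.33, adjusted p = 0.00843), and Lama1 as higher than contralateral without crushed replicate 1 (log2 0.85 ± 0.36, adjusted p = 0.0491).

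**Figure D2:**
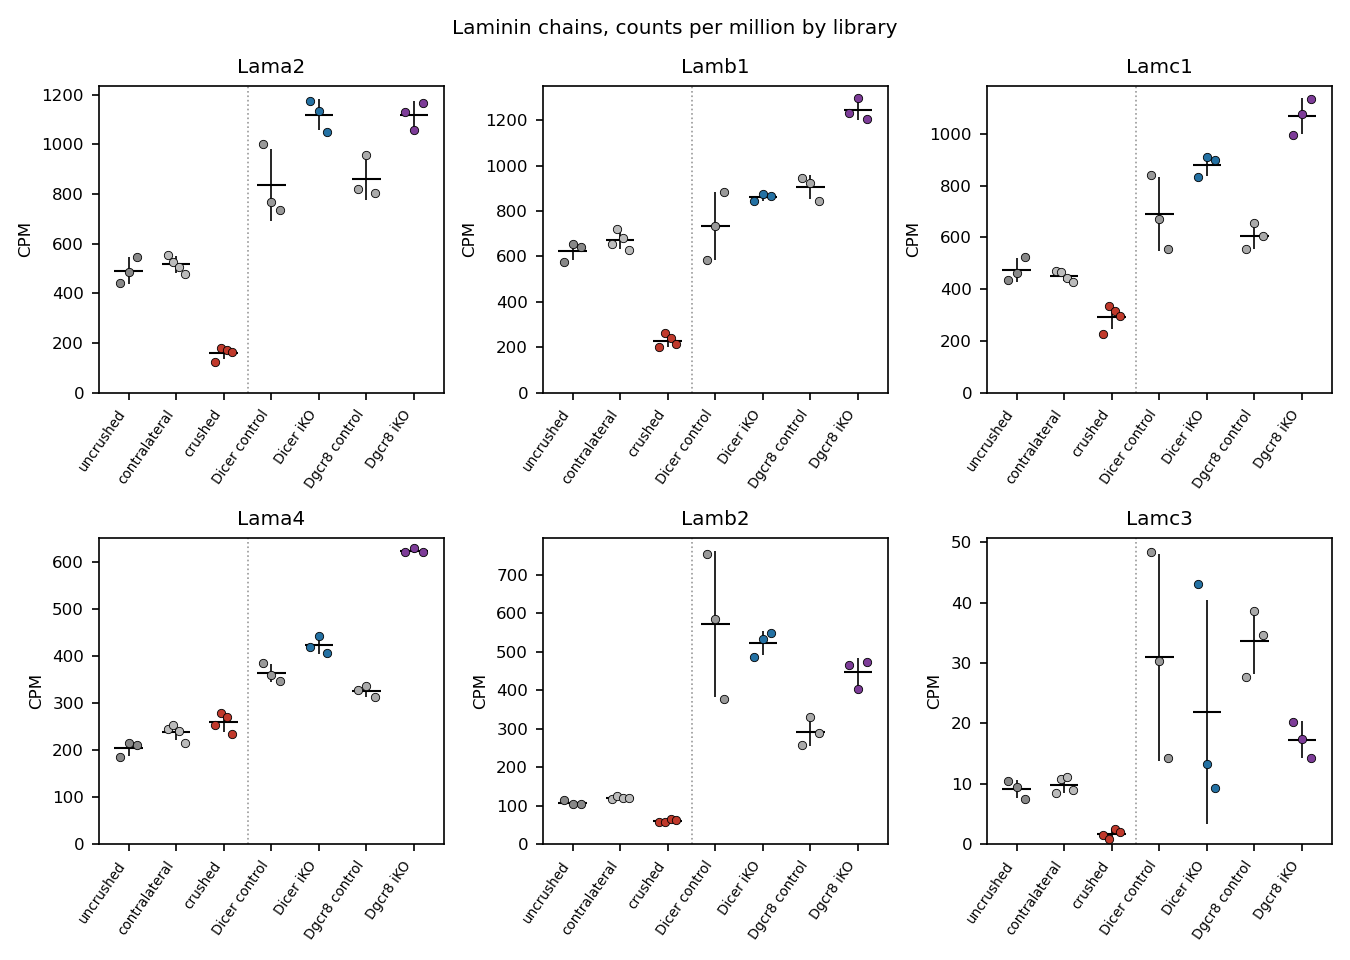
CPM (y axis) of 6 laminin chains in every library, by group (x axis); points are libraries, bars the mean ± SD, and the dotted line divides the separately normalized crush and iKO experiments. Lama2, Lamb1, Lamc1, Lamb2 and Lamc3 are lowest in the crushed nerves of the crush experiment, and Lama4 is not.

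With Lama2 lower and Lama4 not, the makeup of the alpha chains differed after crush. As a share of the summed TPM of Lama1 to Lama5, Lama2 held 62.3, 60.5 and 63.7% in uncrushed, 61.3, 58.5, 58.7 and 59.5% in contralateral and 24.7, 32.3, 33.7 and 34% in crushed nerves, and Lama4 held 31, 32.1 and 31.5%, 34.3, 33.9, 34.8 and 33.7% and 66, 59.8, 58.7 and 56.6%. The shares of the crushed nerves did not overlap those of the others, and Lama4 took the larger share in all 4 crushed nerves while Lama2 did in all 7 others. With the nerves treated as independent, the two-sided exact permutation p was 0.0286 for each chain against contralateral nerve, the smallest that 4 against 4 allows. Nerves of the same mouse were not paired in it. Against uncrushed nerve it was 0.0571, the smallest that 4 against 3 allows. Over the 15 share tests made, the adjusted p was 0.171 for these 4 tests, and none of the 15 passed. The Lama4 share of contralateral against uncrushed nerve, without overlap, also had an exact permutation p of 0.0571 and an adjusted p of 0.171. Lama5 held 5.56% ± 1.39 (SD, n = 3) in uncrushed and 6.91% ± 0.895 (SD, n = 4) in crushed nerves, which overlapped.

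The receptors that bind laminin moved in both directions after crush: of the 6, 2 rose (1 called), 3 fell (all called) and Dag1 did not pass, against either control. Thus 33.3% rose and 50% fell, beside 33.8% and 33.4% of all genes against uncrushed and 33.5% and 32.9% against contralateral nerve. Itga7, the alpha chain that pairs with Itgb1 on muscle and on regenerating neurons, had the largest change, from 28.1, 27.2 and 22.9 CPM in uncrushed and 31.4, 42.5, 33 and 26.6 CPM in contralateral to 315, 243, 254 and 215 CPM in crushed nerves. All crushed nerves were far above the rest, by 10.5-fold against uncrushed (log2 3.4 ± 0.16, adjusted p = 3.16e-09) and 7.73-fold against contralateral (log2 2.95 ± 0.15, adjusted p = 4.34e-10). The 4 skeletal muscle markers summed to 0.641 to 0.848 CPM in crushed and 0.719 to 1.2 CPM in uncrushed nerves. Itgb1, the common beta chain, was at 305, 393 and 396 CPM in uncrushed, 370.4, 370.0, 377 and 340.3 CPM in contralateral and 566, 729, 620.0 and 570.4 CPM in crushed nerves, higher by less than 2-fold without overlap (log2 0.88 ± 0.12, adjusted p = 5.71e-05 and 0.78 ± 0.09, adjusted p = 1.78e-06).

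Itgb4, the partner of Itga6 on the outer surface of myelinating Schwann cells, was at 316, 299 and 276 CPM in uncrushed, 312, 406, 365 and 309.5 CPM in contralateral and 94.3, 84.5, 84 and 72.1 CPM in crushed nerves. It fell 3.3-fold (log2 -1.72 ± 0.11, adjusted p = 4.99e-08) and 4.11-fold (log2 -2.04 ± 0.11, adjusted p = 9.37e-10), and the groups did not overlap. Itga6 was at 542, 720.3 and 651 CPM in uncrushed, 718, 829, 715 and 635 CPM in contralateral and 273, 316, 294 and 242 CPM in crushed nerves, and fell without overlap (log2 -1.08 ± 0.12, adjusted p = 6.58e-06 and -1.35 ± 0.10, adjusted p = 3.01e-08). Itga3, which also pairs with Itgb1, was at 14.8, 11.5 and 12.3 CPM in uncrushed, 14.3, 18.4, 16.1 and 14.5 CPM in contralateral and 5.69, 5.61, 5.86 and 5.75 CPM in crushed nerves (log2 -1.07 ± 0.15, adjusted p = 4.24e-05 and -1.45 ± 0.13, adjusted p = 1.35e-07). Among the 3 laminin-binding alpha chains the share of summed TPM held by Itga7 was 4.08, 3.07 and 2.71% in uncrushed, 3.49, 4.23, 3.79 and 3.39% in contralateral and 48.1, 38.8, 41.7 and 41.1% in crushed nerves, a description without a test in which the crushed nerves stood apart. Dag1 was at 795, 906 and 864 CPM in uncrushed and 963, 863, 958 and 744 CPM in crushed nerves, which overlapped (log2 0.15 ± 0.12, adjusted p = 0.267, and -0.18 ± 0.12, adjusted p = 0.18 against contralateral); against uncrushed it passed only with no filter on low counts (log2 0.38 ± 0.15, adjusted p = 0.0347).

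**Figure D3:**
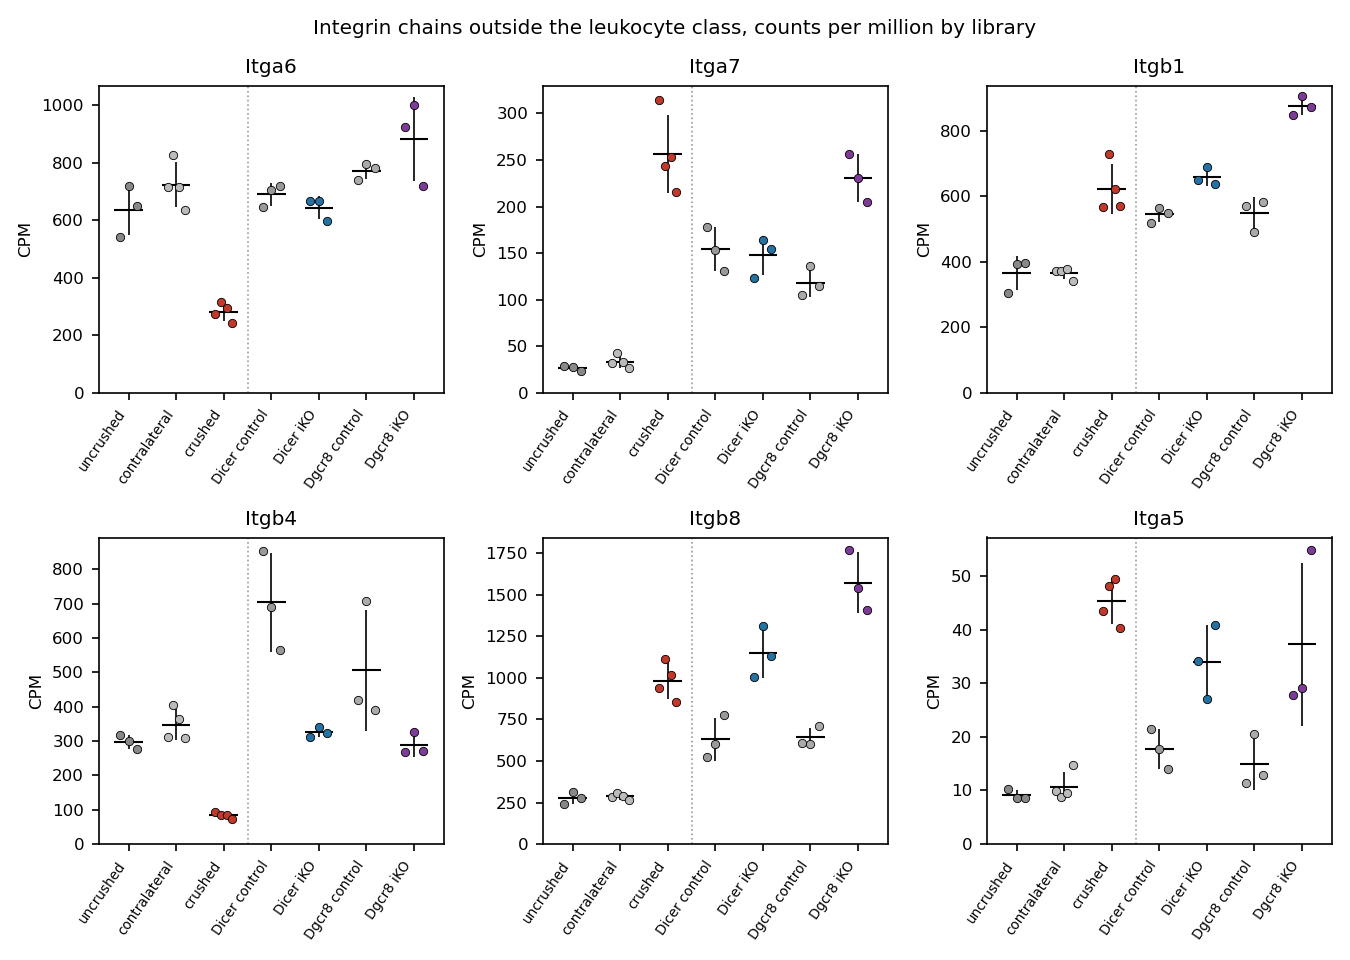
CPM (y axis) of 6 integrin chains in every library, by group (x axis); points are libraries, bars the mean ± SD, and the dotted line divides the separately normalized crush and iKO experiments. Crushed nerves and Dgcr8 iKO nerves lie above their own controls for Itga7, Itgb1, Itgb8 and Itga5 and below them for Itgb4.

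Of the 8 receptors for fibronectin and other ligands with an RGD motif, 7 were tested against uncrushed nerve. There 4 rose (57.1%, against 33.8% of all genes) and 3 fell (42.9%, against 33.4%). Of these, 3 were called higher (42.9%, against 15.3%) and 2 lower (28.6%, against 21.1%). Itga5, the fibronectin receptor chain that pairs with Itgb1, was at 10.2, 8.52 and 8.54 CPM in uncrushed, 9.91, 8.71, 9.54 and 14.7 CPM in contralateral and 43.5, 48.2, 49.4 and 40.3 CPM in crushed nerves, 5.28-fold and 4.31-fold higher without overlap (log2 2.4 ± 0.12, adjusted p = 6.05e-09 and 2.11 ± 0.13, adjusted p = 2.77e-09). Itgb8, which with Itgav releases active TGF-beta from its latent form, was at 244, 314 and 279 CPM in uncrushed, 286, 309, 291 and 262 CPM in contralateral and 941, 1115, 1018 and 857 CPM in crushed nerves. It was 3.79-fold and 3.45-fold higher (log2 1.92 ± 0.13, adjusted p = 7.26e-08 and 1.79 ± 0.09, adjusted p = 5.24e-10), and its partner Itgav had log2 0.28 ± 0.11, adjusted p = 0.0454, and 0.03 ± 0.10, adjusted p = 0.811. The first of these lost its call without any 1 of crushed replicates 1, 2 and 3 or uncrushed replicate 1, with an adjusted p of 0.0822 to 0.153. It was also lost with RLE normalization (adjusted p = 0.0571), with DESeq2 (0.0536) and with all groups in one fit (0.227).

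Itgb3, another partner of Itgav, rose from 11.8, 12.9 and 12.6 CPM in uncrushed and 15.5, 15, 11.2 and 11.1 CPM in contralateral to 26, 22.3, 25.3 and 23.8 CPM in crushed nerves (log2 1.08 ± 0.11, adjusted p = 4.21e-06 and 0.89 ± 0.13, adjusted p = 2.47e-05). Itga2b, its platelet partner, fell in the same nerves, from 6.83, 8.27 and 6.32 CPM in uncrushed and 7.17, 9.03, 8.93 and 8.62 CPM in contralateral to 2.41, 2.76, 3.02 and 3.2 CPM in crushed (log2 -1.23 ± 0.20, adjusted p = 0.000153 and -1.55 ± 0.16, adjusted p = 7.42e-07). The 5 platelet markers summed to 13.1 to 41.3 CPM in crushed, 9.52 to 15.5 CPM in uncrushed and 7.61 to 13 CPM in contralateral nerves, with Gp9 at 0 in the crushed nerves, and their part in these changes was not tested. Itgb5 fell (log2 -0.70 ± 0.18, adjusted p = 0.00446 and -1.1 ± 0.17, adjusted p = 6.69e-05), at 93.3, 86.2 and 85.9 CPM in uncrushed, 89, 128, 121 and 99.3 CPM in contralateral and 36.6, 70.3, 57.6 and 38.6 CPM in crushed nerves. Itga8, a receptor of nephronectin on mesenchymal cells, was at 4.05, 5.13 and 6.49 CPM in uncrushed, 4.06, 6.36, 5.32 and 4.72 CPM in contralateral and 2.08, 2.6, 2.29 and 2.17 CPM in crushed nerves (log2 -1.05 ± 0.22, adjusted p = 0.00113 and -1.15 ± 0.20, adjusted p = 0.000122).

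Itga9, a receptor of tenascin C and osteopontin, rose from 6.83, 6.76 and 8.03 CPM in uncrushed and 6.32, 5.26, 8.13 and 8.41 CPM in contralateral to 15.4, 16.8, 15.3 and 15.6 CPM in crushed nerves without overlap (log2 1.24 ± 0.12, adjusted p = 2.82e-06 and 1.19 ± 0.13, adjusted p = 1.88e-06). Of all genes, 15.3% were called higher and 21.1% lower against uncrushed nerve, and 14.6% and 13.6% against contralateral nerve. Beside these shares, none of the 4 collagen receptors was called, a class too small for a comparison. Itga1, their most abundant chain, rose from 18, 19.7 and 20.2 CPM in uncrushed and 22.2, 24.3, 22.3 and 20.0 CPM in contralateral to 32.2, 38.5, 36.1 and 31.8 CPM in crushed nerves (log2 0.95 ± 0.10, adjusted p = 4.39e-06 and 0.65 ± 0.09, adjusted p = 2.1e-05). Itga2 passed only against uncrushed nerve (log2 0.66 ± 0.21, adjusted p = 0.014, and 0.16 ± 0.15, adjusted p = 0.369 against contralateral), where the groups overlapped and leaving out uncrushed replicate 1 gave an adjusted p of 0.0505. Itga10 and Itga11 did not pass and were at most at 5.37 CPM in the crush libraries.

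The leukocyte integrins rose most. Of the 7 tested, 6 were called higher against each control (85.7%, against 15.3% of all genes for uncrushed and 14.6% for contralateral nerve). The other 1 was called lower (14.3%, against 21.1% and 13.6%). Itgax and Itgb7 summed to 10 and 21 counts in uncrushed and 12 and 20 counts in contralateral nerves. Both were too low to test between these controls. They entered the test through the crushed nerves, which favors calls as higher. The median log2 change of the 7 was 2.77 (uncrushed) and 3.17 (contralateral). Itgam, the alpha chain of the complement receptor of macrophages and neutrophils, was at 6.02, 5.26 and 5.81 CPM in uncrushed, 5.57, 5.1, 4.32 and 8.1 CPM in contralateral and 93.9, 172, 132 and 129 CPM in crushed nerves. It was 24.6-fold and 23.1-fold higher (log2 4.62 ± 0.21, adjusted p = 2.57e-09 and 4.53 ± 0.19, adjusted p = 5.99e-11), the largest change of the laminin and integrin genes tested in this experiment. In the gene annotation used here 68.7% of its exon bases are shared, on the same strand, with another gene model, Gm49368, which the authors' tables do not list, so its counts may include reads of that model. Itgb2, its beta partner, was at 7.55, 8.77 and 7.0 CPM in uncrushed, 6.89, 6.04, 6.22 and 8.21 CPM in contralateral and 42.5, 80.8, 62.1 and 57.7 CPM in crushed nerves (log2 3.06 ± 0.20, adjusted p = 8.14e-08 and 3.17 ± 0.17, adjusted p = 7.72e-10). Itgax, used by dendritic cells and some macrophages, was at 0.18, 0.501 and 0.683 CPM in uncrushed, 0.189, 0.392, 0.201 and 0.308 CPM in contralateral and 3.37, 5.2, 5.86 and 4.52 CPM in crushed nerves (log2 3.6 ± 0.39, adjusted p = 5.46e-06 and 4.05 ± 0.31, adjusted p = 3.8e-08). For these 3 genes no crushed nerve overlapped the others, and crushed replicate 1 was the lowest and replicate 2 the highest for Itgam and Itgb2.

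The lymphocyte-type chains moved as well. Itga4 rose from 20.9, 28.9 and 32.1 CPM in uncrushed and 30.9, 29.2, 27 and 26.3 CPM in contralateral to 61.9, 101, 81.3 and 95.4 CPM in crushed nerves (log2 1.76 ± 0.18, adjusted p = 3.7e-06 and 1.6 ± 0.13, adjusted p = 8.86e-08). Itgal rose from 0.899, 2.25 and 1.54 CPM in uncrushed and 1.23, 0.157, 1.0 and 0.923 CPM in contralateral to 5.21, 6.34, 5.95 and 4.62 CPM (log2 1.97 ± 0.28, adjusted p = 6.39e-05 and 2.79 ± 0.32, adjusted p = 2.22e-06), and Itgb7 from 0.809, 0.877 and 0.854 and 0.283, 0.549, 0.803 and 0.205 CPM to 4.97, 5.37, 5.58 and 5.84 CPM (log2 2.77 ± 0.24, adjusted p = 8.78e-07 and 3.53 ± 0.29, adjusted p = 6.08e-08). Itgae, the alpha chain of tissue-resident T cells, fell, from 4.86, 3.26 and 3.42 CPM in uncrushed and 3.3, 2.9, 3.21 and 2.56 CPM in contralateral to 0.561, 1.06, 0.915 and 1.32 CPM in crushed nerves (log2 -1.92 ± 0.32, adjusted p = 0.000198 and -1.62 ± 0.27, adjusted p = 8.99e-05). Itgad and Itgb6 were not tested in the crush and mutant comparisons; Itgad had 0 to 11 counts per group over all libraries and Itgb6 0 to 47.

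Marker sums of myeloid cells and neutrophils rose with this class, and those of T, NK and B cells did not. All 8 macrophage and myeloid markers rose against uncrushed nerve, and their summed CPM was 105 to 137 in uncrushed, 81.5 to 154 in contralateral and 555 to 1388 in crushed nerves, lowest in crushed replicate 1 and highest in replicate 2. The 5 neutrophil markers summed to 0.376 to 1.26 CPM in uncrushed, 0.283 to 0.703 CPM in contralateral and 10.4 to 23.1 CPM in crushed nerves. The 6 T and NK cell markers did not rise: they summed to 6.65 to 8.88 CPM in uncrushed, 2.59 to 3.77 CPM in contralateral and 2.16 to 4.64 CPM in crushed nerves. Crushed and contralateral nerves overlapped, and every crushed nerve was under every uncrushed one. Against uncrushed nerve, 2 of the 3 T and NK cell markers tested were called lower (66.7%, against 21.1% of all genes), as was the 1 B cell marker tested. The 3 B cell markers summed to 4.5 to 8.71, 2.71 to 3.9 and 2.03 to 2.57 CPM in the same order. The part of cell number in the rise of the leukocyte integrins was not tested.

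**Figure D4:**
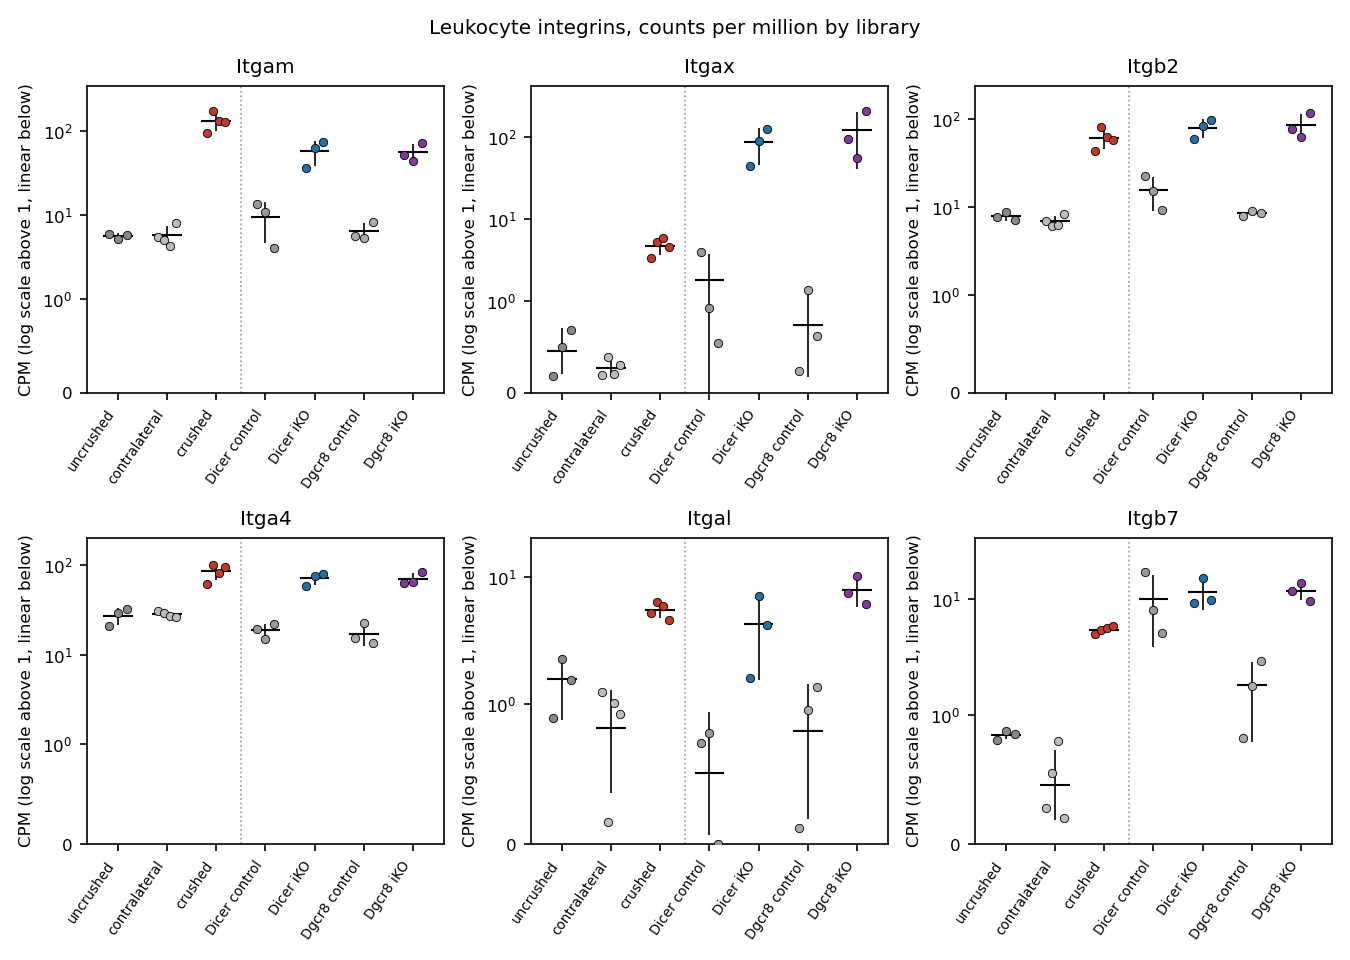
CPM (y axis, logarithmic above 1 and linear below) of 6 leukocyte integrins in every library, by group (x axis); points are libraries, bars the mean ± SD, and the dotted line divides the separately normalized experiments. Itgam is highest in crushed nerves, while Itgax reaches 3.37 to 5.86 CPM there and 55.5 to 209 CPM in Dgcr8 iKO nerves.

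The iKO mice were compared with their own controls to ask what follows from loss of Dicer, the enzyme that cuts microRNA precursors, or of Dgcr8, the RNA-binding partner of the enzyme Drosha, in adult myelinating Schwann cells without injury. In Dicer iKO nerves, 35 of the 38 genes were tested; 10 rose (28.6%, against 12.3% of all genes) and 1 fell (2.86%, against 8.88%), of which 8 and 1 were called (22.9%, against 7.37%, and 2.86%, against 1.64%). In Dgcr8 iKO nerves, 35 were tested; 22 rose (62.9%, against 23.9%) and 6 fell (17.1%, against 20.6%), of which 13 and 2 were called (37.1%, against 13.4%, and 5.71%, against 6.99%). The median log2 fold change was 0.18 in Dicer and 0.82 in Dgcr8 iKO, beside -0.01 over all genes in each. None of the 36 genes tested passed for a difference between the 2 mutants' effects (interaction term over the 12 libraries, background 0.0148%). At an unadjusted p under 0.05 were 12 of the 36 and 1861 of all 13552 genes. DESeq2 passed 240 of the 13552 genes and 3 of the 36: Itgb7, Lama4 and Itga7, each with the more positive effect in Dgcr8 iKO. Without Dicer control replicate 3 edgeR passed 8 of the 36.

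Laminin chains rose in Dgcr8 iKO and none passed in Dicer iKO. Of the 10 tested in Dgcr8 iKO, 7 rose (70%, against 23.9% of all genes), 2 of them called (20%, against 13.4%). There 1 fell (10%, against 20.6%), and the median change was 0.60 (log2). The median of the 10 tested in Dicer iKO was 0.04, where 12.3% of all genes rose and 8.88% fell. Lama4 was at 327, 336 and 312 CPM in Dgcr8 controls and 621, 631 and 623 CPM in Dgcr8 iKO, close to 2-fold apart with little spread (log2 0.94 ± 0.14, adjusted p = 0.000246). In the Dicer experiment it was at 385, 359.6 and 347 CPM in controls and 419.6, 444 and 407 CPM in iKO, which did not overlap but did not pass (log2 0.22 ± 0.10, adjusted p = 0.155). Lamc1 was at 556, 656 and 604 CPM in Dgcr8 controls and 996, 1079 and 1135 CPM in Dgcr8 iKO (log2 0.82 ± 0.15, adjusted p = 0.0014), and Lamb2 at 258, 331 and 288 and 464, 403 and 473 CPM (log2 0.61 ± 0.15, adjusted p = 0.00625). Lamb1 rose by less (log2 0.46 ± 0.15, adjusted p = 0.0321), a call lost without any 1 of 4 libraries, with an adjusted p of up to 0.11 (without Dgcr8 control replicate 3). Lama2 was at 819, 957 and 805 CPM in Dgcr8 controls and 1132, 1058 and 1167 CPM in Dgcr8 iKO, and at 1001, 769 and 735 and 1173, 1135 and 1052 CPM in the Dicer experiment; neither pair overlapped and neither passed (log2 0.38 ± 0.16, adjusted p = 0.0733, and 0.43 ± 0.15, adjusted p = 0.0807). Both calls turned with the setting. In Dgcr8 iKO, Lama2 passed as higher with DESeq2 (adjusted p = 0.00818), with all groups in one fit (0.0453) and without control replicate 2 (0.0433). In Dicer iKO it passed as higher with DESeq2 (adjusted p = 0.0317), with all groups in one fit (0.0459) and without control replicate 1 (log2 0.57 ± 0.13, adjusted p = 0.0214). Lamc1 had log2 0.36 ± 0.16, adjusted p = 0.157, in Dicer iKO, and passed without control replicate 1 (log2 0.52 ± 0.14, adjusted p = 0.036).

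Scarce laminin chains changed as well. Lama1, an embryonic chain called in Dgcr8 iKO, was at 0.118, 0.544 and 0.104 CPM in Dgcr8 controls, at or near the floor, and 1.89, 2.86 and 2.45 CPM in Dgcr8 iKO (log2 3.27 ± 0.57, adjusted p = 0.000893; 4.28 without control replicate 2), and it was too low to test in Dicer iKO. Without Dicer control replicate 3, Lamb3, a beta chain of epithelial laminin, passed as lower in Dicer iKO (log2 -1.96 ± 0.37, adjusted p = 0.0103); that replicate had the lowest perineurial and fibroblast marker sums of the Dicer controls. In Dgcr8 iKO it was too low to test, and it passed as higher with no filter on low counts (log2 2.32 ± 0.68, adjusted p = 0.00897) and when any 1 control or iKO replicate 3 was left out. Lamc3 fell in Dgcr8 iKO, from 27.7, 38.6 and 34.6 to 20.3, 17.4 and 14.2 CPM (log2 -0.96 ± 0.17, adjusted p = 0.00103), and Lama5 rose (log2 0.59 ± 0.18, adjusted p = 0.02), a call lost without either of Dgcr8 control replicates 1 and 3 or without iKO replicate 3, at an adjusted p of up to 0.089.

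The alpha chain shares were also compared in the mutants. Lama2 held 62.2, 66.4 and 64.4% of summed alpha chain TPM in Dgcr8 controls and 56.1, 53.6 and 53.6% in Dgcr8 iKO, and Lama4 held 31.5, 26.6 and 29.9% and 37.8, 39.9 and 38.5%. Neither pair overlapped, and the exact permutation p of 0.1 for each is the smallest that 3 against 3 allows (adjusted p = 0.214). In the Dicer experiment Lama2 held 60.9% ± 3.42 (SD, n = 3) in controls and 64.3% ± 2.35 in iKO (exact permutation p = 0.3). Lama2 remained the larger of both chains in all 12 iKO libraries.

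**Figure D5:**
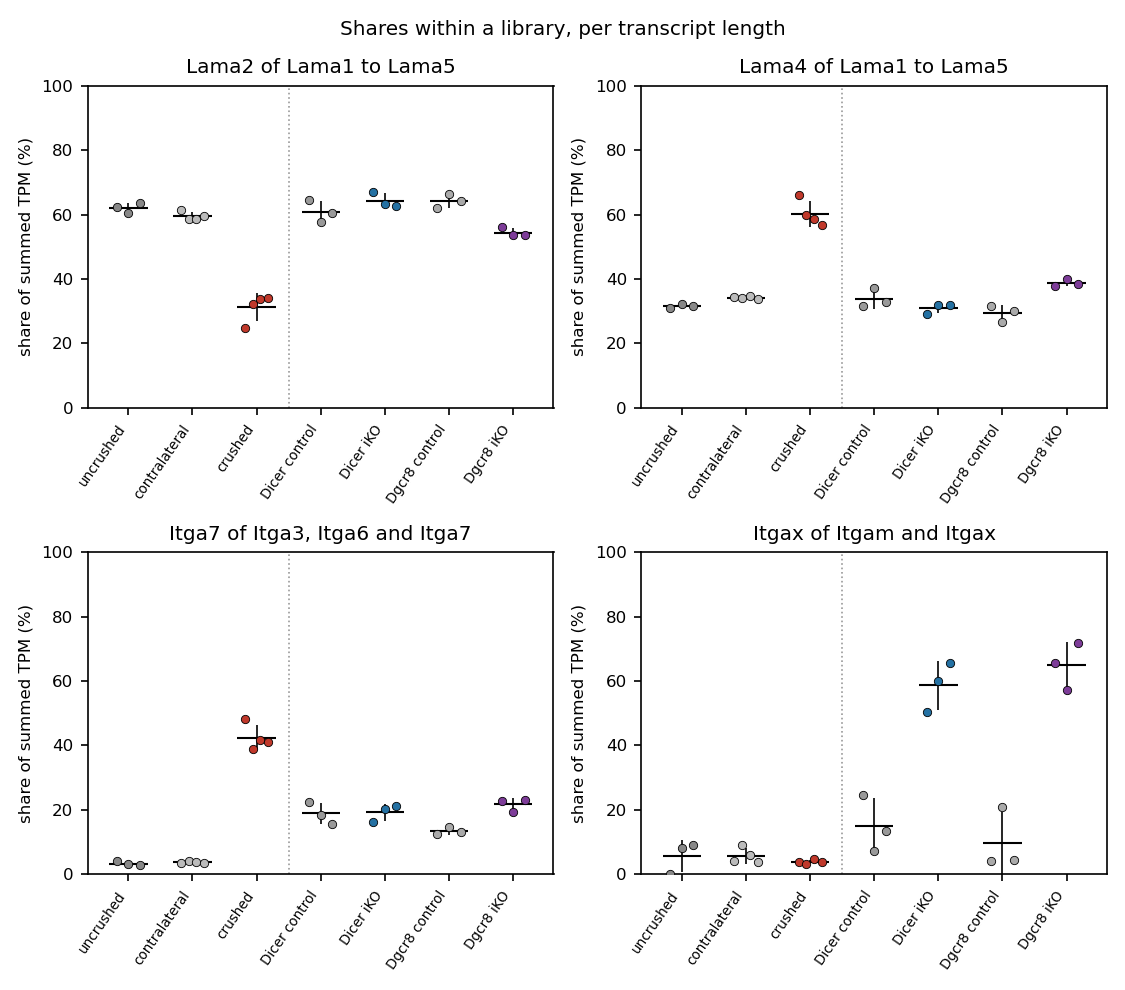
Share of summed TPM within a library (y axis, percent) held by Lama2 and by Lama4 among the laminin alpha chains, by Itga7 among the laminin-binding integrin alpha chains, and by Itgax among Itgam and Itgax together, by group (x axis); points are libraries and bars the mean ± SD. The Lama2, Lama4 and Itga7 shares of the crushed nerves stand apart from all other groups, and the Itgax share stands apart in both mutants.

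Among the laminin receptors, Itgb4 fell in both mutants. It was at 853, 691 and 566 CPM in Dicer controls and 311, 339.6 and 324 CPM in Dicer iKO, 2.16-fold lower without overlap (log2 -1.11 ± 0.16, adjusted p = 0.00482), and at 418, 708 and 391 CPM in Dgcr8 controls and 267, 327 and 270.1 CPM in Dgcr8 iKO (log2 -0.81 ± 0.22, adjusted p = 0.0107). Itga6 did not pass in either (log2 -0.10 ± 0.11, adjusted p = 0.56 in Dicer iKO and 0.19 ± 0.17, adjusted p = 0.39 in Dgcr8 iKO), and neither did Dag1 (log2 0.09 ± 0.20, adjusted p = 0.763 and -0.15 ± 0.18, adjusted p = 0.523). Itga7 was at 105, 136 and 114 CPM in Dgcr8 controls and 256, 230.3 and 205 CPM in Dgcr8 iKO (log2 0.96 ± 0.14, adjusted p = 0.00032), while in the Dicer experiment it was at 178, 153 and 131 and 124, 164 and 154 CPM, which overlapped (log2 -0.06 ± 0.15, adjusted p = 0.793; difference between the mutants' effects 1.03 ± 0.22, adjusted p = 0.137). Itgb1 rose in Dgcr8 iKO (log2 0.67 ± 0.15, adjusted p = 0.00409) and had log2 0.28 ± 0.10, adjusted p = 0.096, in Dicer iKO, where it passed with DESeq2 (adjusted p = 0.0443). Itga3 fell in Dgcr8 iKO, from 22.7, 29.4 and 29.2 to 13.8, 16.7 and 18.8 CPM (log2 -0.72 ± 0.17, adjusted p = 0.0045), and was at 14.4, 21.8 and 27.6 CPM in Dicer controls and 14.5, 10.4 and 8.03 CPM in Dicer iKO (log2 -0.95 ± 0.29, adjusted p = 0.0557; -1.17 ± 0.26, adjusted p = 0.018 without control replicate 1, and -1.2 ± 0.31, adjusted p = 0.0408 without iKO replicate 1). It passed in Dicer iKO also with DESeq2 (adjusted p = 0.0183), with all groups in one fit (0.0161) and with no filter on low counts (0.0462).

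Several RGD and collagen receptors rose in both mutants. Itgb3 was at 14.3, 12.9 and 9.84 CPM in Dgcr8 controls and 60.4, 69.7 and 60.3 CPM in Dgcr8 iKO (5.15-fold, log2 2.36 ± 0.16, adjusted p = 2.28e-06), and at 18.5, 15.3 and 7.57 and 31.5, 39 and 39.9 CPM in the Dicer experiment (log2 1.42 ± 0.29, adjusted p = 0.0148). Itgb8 was at 611, 605 and 710.2 CPM in Dgcr8 controls and 1767, 1539 and 1408 CPM in Dgcr8 iKO (log2 1.29 ± 0.17, adjusted p = 0.000148), and at 521, 600.5 and 774 and 1006, 1313 and 1134 CPM in the Dicer experiment (log2 0.87 ± 0.18, adjusted p = 0.0158). Itga5 was at 11.3, 20.5 and 13 CPM in Dgcr8 controls and 27.9, 29.2 and 54.8 CPM in Dgcr8 iKO (log2 1.33 ± 0.28, adjusted p = 0.00302), and at 21.5, 17.7 and 14.1 and 34.2, 27.1 and 40.8 CPM in the Dicer experiment (log2 0.94 ± 0.20, adjusted p = 0.0178). No iKO library of these 3 genes overlapped its controls. Per transcript length, Itgb8 held 9.71% ± 1.23 (SD, n = 3) of the 38 genes' summed TPM in Dgcr8 iKO and 8.85% ± 0.911 in Dicer iKO, the fifth share in each. In Dicer iKO the calls of Itgb3, Itgb8 and Itga5 were each lost when 1 of 2 or 3 single libraries was left out, at adjusted p values of up to 0.0708, 0.0767 and 0.077; for all 3 this happened without iKO replicate 3.

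Itga2, a collagen receptor of epithelium and platelets, was at 12.2, 8.7 and 10.1 CPM in Dgcr8 controls and 30.9, 31 and 20.3 CPM in Dgcr8 iKO (log2 1.41 ± 0.20, adjusted p = 0.000261), and at 4.88, 7.27 and 6.76 and 11.6, 16 and 13 CPM in the Dicer experiment (log2 1.1 ± 0.22, adjusted p = 0.0147; adjusted p = 0.068 without iKO replicate 2 and 0.0621 without iKO replicate 3). Itga10, a collagen receptor of cartilage, was at 2.15, 1.85 and 2.3 CPM in Dicer controls and 5.72, 10.4 and 9.42 CPM in Dicer iKO (log2 2.0 ± 0.31, adjusted p = 0.00587), and at 1.3, 5.71 and 2.07 and 5.43, 6.2 and 8.75 CPM in the Dgcr8 experiment, which overlapped (log2 1.2 ± 0.44, adjusted p = 0.0448; lost without any 1 of the other 5 libraries and 1.98 without control replicate 2). It shares 33.5% of its exon bases with an overlapping gene model, Gm42957, which the authors' tables list separately, so its counts are uncertain. Itga1 and Itga9 rose in Dgcr8 iKO (log2 0.85 ± 0.16, adjusted p = 0.00151 and 0.88 ± 0.16, adjusted p = 0.00118) and did not pass in Dicer iKO (log2 0.14 ± 0.23, adjusted p = 0.689 and 0.07 ± 0.34, adjusted p = 0.902). Itga8 was at 21.8, 23.1 and 33.2 CPM in Dgcr8 controls and 8.5, 10.5 and 9.57 CPM in Dgcr8 iKO (log2 -1.45 ± 0.19, adjusted p = 0.00015), and Itga2b at 14.7, 16.9 and 14.4 and 7.2, 7.25 and 4.32 CPM (log2 -1.29 ± 0.22, adjusted p = 0.000736); these were the 2 genes called lower there. In Dicer iKO they had log2 -1.0 ± 0.38, adjusted p = 0.0975, and -0.45 ± 0.36, adjusted p = 0.411. Itga8 passed there as lower with DESeq2 (adjusted p = 0.0393), with all groups in one fit (0.036), without control replicate 1 (log2 -1.23 ± 0.35, adjusted p = 0.0438) and without iKO replicate 1 (log2 -1.51 ± 0.32, adjusted p = 0.0227). Itgav, Itgb5 and Itga11 did not pass in either mutant.

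In both mutants Itgax, a leukocyte integrin, had the largest change of the laminin and integrin genes tested. In Dicer iKO 5 of the 7 tested leukocyte integrins were called higher (71.4%, against 7.37% of all genes) and none fell. Their median change was 2.36 (log2). In Dgcr8 iKO 6 were called higher (85.7%, against 13.4%), with a median of 3.09. Itgae fell there (log2 -0.94 ± 0.29, adjusted p = 0.0226), a call lost without Dgcr8 control replicate 2 or iKO replicate 1. Some of these genes were scarce in controls: Itgal and Itgax summed to 11 and 39 counts in Dicer and 21 and 18 counts in Dgcr8 controls. Such genes entered the test through the iKO libraries, which favors calls as higher. Itgax was at 0.236, 1.36 and 0.622 CPM in Dgcr8 controls, in part at the floor, and 95.9, 55.5 and 209 CPM in Dgcr8 iKO (log2 7.37 ± 0.62, adjusted p = 8.3e-06; 8.04 without control replicate 2 and 6.71 without iKO replicate 3). In the Dicer experiment it was at 4.02, 0.925 and 0.541 CPM in controls and 44.9, 88.5 and 127 CPM in iKO (log2 5.58 ± 0.63, adjusted p = 0.00271; 6.85 without control replicate 1). Itgam was at 5.66, 5.3 and 8.39 CPM in Dgcr8 controls and 51.9, 43.8 and 72 CPM in Dgcr8 iKO (log2 3.09 ± 0.23, adjusted p = 4.49e-06), and at 13.6, 11 and 4.05 and 36.7, 62.1 and 73.4 CPM in the Dicer experiment (log2 2.59 ± 0.42, adjusted p = 0.00686). Itgb2 was at 7.91, 8.84 and 8.6 CPM in Dgcr8 controls and 76.5, 61.8 and 118 CPM in Dgcr8 iKO (log2 3.33 ± 0.23, adjusted p = 3.09e-06), and at 22.1, 14.9 and 9.19 and 58.2, 83.3 and 95.5 CPM in the Dicer experiment (log2 2.36 ± 0.31, adjusted p = 0.00393). For all 3 genes every iKO library lay above every control of its experiment.

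Itgax and Itgam stood in a different ratio in the mutants and after crush. Within a library, Itgax held 0, 8.0 and 9.09% of the summed TPM of both genes in uncrushed, 4.0, 9.09, 5.88 and 3.85% in contralateral and 3.81, 3.27, 4.58 and 3.78% in crushed nerves. It held 24.5, 7.24 and 13.4% in Dicer controls, 50.5, 60.2 and 65.5% in Dicer iKO, 4.17, 20.7 and 4.24% in Dgcr8 controls and 65.7, 57.2 and 71.9% in Dgcr8 iKO. Itgam thus had the larger share in every crushed nerve and Itgax in every mutant nerve, a description across 2 kits that was not tested and in which the Itgam counts may include reads of Gm49368.

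Itga4 was at 19.4, 15.1 and 21.8 CPM in Dicer controls and 58.2, 75.4 and 79.1 CPM in Dicer iKO (log2 1.92 ± 0.18, adjusted p = 0.00167), and at 15.2, 22.4 and 13.6 and 63, 64.6 and 83.9 CPM in the Dgcr8 experiment (log2 2.05 ± 0.19, adjusted p = 1.61e-05). Itgal was at 0.118, 0.952 and 1.35 CPM in Dgcr8 controls and 7.44, 10.3 and 6.18 CPM in Dgcr8 iKO (log2 3.26 ± 0.47, adjusted p = 0.000249; 3.92 without control replicate 3), and at 0.718, 0.793 and 0 and 1.6, 7.07 and 4.15 CPM in the Dicer experiment (log2 3.02 ± 0.82, adjusted p = 0.0368), where leaving out any 1 of 4 libraries ended the call at an adjusted p of up to 0.137, without iKO replicate 2. Itgb7 was at 0.826, 1.77 and 2.9 CPM in Dgcr8 controls and 11.8, 13.6 and 9.68 CPM in Dgcr8 iKO (log2 2.64 ± 0.35, adjusted p = 0.000134), but at 16.9, 8.06 and 5.14 and 9.19, 15.2 and 9.83 CPM in the Dicer experiment, where control replicate 1 was the highest of the 6 libraries (log2 0.18 ± 0.42, adjusted p = 0.788; difference between the mutants' effects 2.47 ± 0.61, adjusted p = 0.154). Of the 8 macrophage and myeloid markers 6 rose in Dicer iKO and 7 in Dgcr8 iKO; their sums were 262 to 885 CPM in Dicer controls, 3580.4 to 6473 in Dicer iKO, 247 to 287 in Dgcr8 controls and 2361 to 5633 in Dgcr8 iKO. The T and NK cell markers summed to 0.676 to 2.44, 13.7 to 29.2, 0.622 to 7.34 and 18.5 to 28.6 CPM in the same order. The neutrophil markers were low, with Ly6g at 0 in all 4 groups, but higher in the mutants. They summed to 0 to 0.144, 0.266 to 0.692, 0.104 to 0.236 and 1.65 to 2.33 CPM in that order. The 1 neutrophil marker tested in Dgcr8 iKO was called higher (log2 6.85). In its controls all 5 markers together lay under the floor of 3 counts. That marker thus entered the test through the iKO libraries, and the size of its change is uncertain. The sums in Dicer iKO lay near that floor. The part of these cells in the changes was not tested.

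Some chains are also made by fibroblasts, perineurium and vessels, whose marker sums were as follows. The fibroblast markers summed to 4113 to 5256 CPM in Dgcr8 controls, 8731 to 11233 in Dgcr8 iKO, 12103 to 13184 in Dicer iKO, 2793 to 3282 in uncrushed and 1797 to 2277 in crushed nerves. The endothelial markers summed to 246 to 279 CPM in Dgcr8 controls, 158 to 219 in Dgcr8 iKO, 127 to 151 in uncrushed and 159 to 192 in crushed nerves, and the mural markers to 438 to 512, 573 to 724, 187 to 221 and 188 to 229.7 CPM. The 2 perineurial markers summed to 136 to 182 CPM in Dgcr8 controls, 151 to 204 in Dgcr8 iKO, 49.5 to 60.6 in uncrushed and 27.1 to 34 in crushed nerves. Their part in the laminin changes was not tested.

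The crush and iKO experiments share no library, and their directions can be set side by side. Of the 17 genes that rose against uncrushed nerve, 15 (88.2%) rose in Dgcr8 iKO, where they make 68.2% of the 22 that rose, and none fell. Of all genes that rose after crush and were tested in both, 43.7% rose in Dgcr8 iKO. Of the 12 that fell after crush, 6 (50%) fell in Dgcr8 iKO, which are all 6 that fell there: Itga2b, Itga3, Itga8, Itgae, Itgb4 and Lamc3. Over all genes that fell after crush this share was 55.8%, near that of the laminin and integrin genes. The 3 genes that went opposite ways, lower after crush and higher in Dgcr8 iKO, are all laminin chains: Lamb1, Lamb2 and Lamc1 (25% of the 12, against 5.15% over all genes). In Dicer iKO, 9 of the 10 genes that rose (90%) rose after crush, 52.9% of the 17 (23.8% over all genes), and Itgb4 fell in both. All 10 that rose in Dicer iKO rose in Dgcr8 iKO, where they make 45.5% of the 22; over all genes that rose in Dicer iKO, 88% rose in Dgcr8 iKO. These counts are descriptions of the threshold and were not tested.

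Partners of the laminin receptors were counted by lists, beside which the shares of all genes that rose and fell were 33.8% and 33.4% against uncrushed nerve, 12.3% and 8.88% in Dicer iKO and 23.9% and 20.6% in Dgcr8 iKO. Of the 13 tested genes of the dystroglycan complex, none rose in either crush comparison or in either mutant; 12 fell against uncrushed nerve, 6 in Dicer iKO and 9 in Dgcr8 iKO, with median log2 fold changes of -1.33, -0.60 and -0.89, although Dag1 itself passed in none of them in the same fits. The 3 largest falls after crush were those of Prx (log2 -5.35 ± 0.20, adjusted p = 5.76e-10), Drp2 (log2 -4.17 ± 0.16, adjusted p = 6.8e-10), both of the Schwann cell complex that lines Cajal bands, and Sntb1 (log2 -2.55 ± 0.14, adjusted p = 1.22e-08). Of the 10 genes that build the laminin-binding sugar of dystroglycan, 3 rose and 4 fell after crush, 1 rose and 2 fell in Dgcr8 iKO, and none passed in Dicer iKO, shares of 30% and 40% after crush and 10% and 20% in Dgcr8 iKO that lie near or under those of all genes. Of the integrin adhesion genes, 11 rose and 5 fell of 17 tested after crush, 4 rose and 3 fell of 16 in Dicer iKO, and 7 rose and 2 fell of 16 in Dgcr8 iKO. Those with the largest rise after crush were Fermt3 (log2 2.92 ± 0.18, adjusted p = 4.61e-08) and Parvg (log2 2.47 ± 0.27, adjusted p = 7.2e-06), both of blood cells, and Parvb (log2 1.94 ± 0.18, adjusted p = 1.53e-06). They had log2 2.07 ± 0.22, adjusted p = 3.16e-05, 2.99 ± 0.39, adjusted p = 0.00012, and 2.08 ± 0.35, adjusted p = 0.000626 in Dgcr8 iKO, and Lims2 fell (log2 -1.34 ± 0.13, adjusted p = 2.81e-06 after crush and -1.42 ± 0.16, adjusted p = 4.46e-05 in Dgcr8 iKO). Of the 6 other basement membrane genes, 4 fell and none rose against uncrushed nerve, 4 rose and 2 fell in Dgcr8 iKO, and 3 rose in Dicer iKO. Nid1, which links laminin to collagen IV, had log2 0.20 ± 0.10, adjusted p = 0.101 after crush and 1.54 ± 0.17, adjusted p = 4.59e-05 in Dgcr8 iKO, and agrin (Agrn) had log2 -1.34 ± 0.11, adjusted p = 3.49e-07 and -0.49 ± 0.16, adjusted p = 0.0281.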

How the data were processed

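RNA of whole sciatic nerve pieces was sequenced in 23 libraries. The authors used Trimmomatic for trimming, STAR for alignment to Ensembl GRCm38 and RSEM for quantification (release and strand setting not given in the sources used here). The deposited tables hold the expected counts and the TPM of RSEM per transcript for each library. Per the labels, the crush libraries were made with a SMARTer stranded pico-input total RNA kit and the iKO libraries with a TruSeq stranded kit with Ribo-Zero, while the study's methods name TruSeq for all, so the experiments were normalized separately. One uncrushed library carries different replicate numbers in its title and its description, and the title was used.

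Transcript counts were added up by gene identifier and then rounded to whole numbers. Each comparison was fitted over all genes of the groups compared with edgeR 4.0.16 in R 4.3.3 (filterByExpr with a minimum count of 10, TMM, quasi-likelihood test, Benjamini-Hochberg adjustment), with limits of an adjusted p of 0.05 and 2-fold; errors of log2 fold changes are standard errors. The difference between mutants was an interaction term over the 12 iKO libraries. Shares of TPM were compared by two-sided exact permutation tests. DESeq2 1.42.0, RLE normalization, no filter, a replicate block, all groups in one fit and leaving out each library were tried as alternatives. The fit was tested on simulated data. Groups came from GEO's labels. Some items are counted but not reported here by name. Any other of the 38 genes could be named, with values in every library for those called and for the most abundant of each class; of the other pathway genes, at most 3 called genes per direction. The genes and lists were chosen with earlier results of these data known. Intervals and floors cover counting error only, and total counts of 5594859 to 12806066 limit the precision of genes under about 1 CPM.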

Additional observations from a re-analysis of the deposited data

Results flagged for a closer look

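In 2 cases 1 of 4 libraries of a group lay far from the other 3 by Dixon's test. Lama5 was at 43.5 CPM in crushed replicate 1 and at 32.0 to 33.1 CPM in the other crushed nerves. Lamb3 was at 1.92 CPM in crushed replicate 3 and at 0.660 to 0.813 CPM in the others. In all, 67 groups of 4 libraries were tested, and chance marks about 1 in 20 of them.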

How the results depend on the processing

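Of 1128 refits of the 95 changes that passed the test, 1082 kept direction and side of the threshold, 46 lost the call and none reversed; the 117 refits of the 15 alpha chain shares stayed within the spread between replicates. Counts of genes called moved by over 1.5 times in 3 comparisons. In Dicer iKO, 1 gene was called lower, against 2 with DESeq2, 2 with all groups in one fit and 1 to 3 when a library was left out; 8 were called higher, against 5 to 9 when a library was left out (5 without iKO replicate 3). In Dgcr8 iKO, 2 were called lower, against 2 to 4 when a library was left out (4 without control replicate 1). For the difference between the mutants, none passed with edgeR, 3 with DESeq2 and 0 to 8 when a library was left out (8 without Dicer control replicate 3, among them Itgb7, Lama4, Itgb3, Itga7, Lamb3, Itga9 and Lamb2). Itgb6, too low to test against uncrushed nerve, passed as lower without uncrushed replicate 2 (log2 -1.48 ± 0.49, adjusted p = 0.0217). The causes were not tested. With all groups in one fit, Lamc3 and Itgae lost their calls in Dgcr8 iKO (adjusted p = 0.124 and 0.0543). Libraries with the same replicate number did not deviate together (mean correlation -0.055 to 0.052). With a replicate block, the counts called higher and lower were 11 and 9 against uncrushed, 10 and 10 against contralateral, 0 and 0 for contralateral against uncrushed, 6 and 1 in Dicer iKO, 13 and 2 in Dgcr8 iKO and 0 and 0 for the difference between the mutants; over all genes in Dicer iKO, 929 passed with the block and 2764 without. Depth limits Itgad, Itgb6, Lama1, Lamb3 and the control levels of Itgax, which lie near the floor of 3 counts. Antisense genes overlap part of some exons, and the strand setting of the counting is not given in the sources used here.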
